A study of Arabidopsis thaliana with 40 samples.

Results

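SnRK1 is the protein kinase that plant cells use to sense energy shortage, and its subunits and activating kinases are encoded by the 9 Arabidopsis thaliana genes described here: the catalytic subunits KIN10 (AT3G01090) and KIN11 (AT3G29160), the β subunits AKINBETA1 (AT5G21170), AKINBETA2 (AT4G16360) and AKINBETA3 (AT2G28060), the βγ subunit SNF4 (AT1G09020), the γ-type protein KING1 (AT3G48530), and the upstream kinases GRIK1 (AT3G45240) and GRIK2 (AT5G60550). They were chosen by their known roles and found by locus code. All 9 of 9 passed the filter on low counts, among 19436 genes tested and 33592 genes counted.

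SnRK1 works as a trimer of a catalytic α subunit, a scaffolding β subunit and a regulatory γ-type subunit, and is the plant relative of yeast SNF1 and animal AMPK. GRIK1 and GRIK2 phosphorylate the activation loop of the catalytic subunit. In darkness, sugar starvation and oxygen shortage the active kinase is known to shift metabolism from growth to the use of reserves.

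Whole seedlings, 9 days old, spent 3 h under water in the dark or 3 h in the dark alone, so that both conditions share the loss of light. K48M seedlings overexpress SnRK1.1, which is KIN10, with the K48M change in the Col-0 background, and Col-0 seedlings are the wild type. The sources used here do not name the driving promoter or the number of independent lines. Heavy-polysome RNA, which is RNA carried by many ribosomes, and total mRNA were sequenced from each genotype and condition, giving 16 libraries in 8 groups of 2. The pair of libraries in a group comes from separate library sets, ST_FR and LTF_GG, and the series text calls the repeats independent biological ones. All p-values measure only the spread between these libraries. A second experiment of the series adds the lines i4g1-2 and 4A-15 under the same treatments. The series text speaks of eIFiso4G1 mutants, the labels say no more of what either line carries, and only the authors' comparisons of them are used here.

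The 16 libraries held 3749306 to 6768995 gene reads, and ribosomal RNA genes took 0.874% to 38.1% of them, with the highest share in the ST_FR Col-0 polysome dark library. For 2 libraries, the LTF_GG total mRNA libraries of K48M, the sample titles and the column headers disagree on which was submerged. Tests therefore used the other 14 libraries, and levels of these 2 are given by column header and marked as in conflict. Each K48M total group then holds 1 library in the fit, and that lone library is assumed to vary as the other groups do. All 4 shoot markers and all 6 root markers on the list had reads in the 16 libraries, with RBCS1A at 4250 to 14100 and PYK10 at 770 to 3630 CPM, which are reads scaled to library size. The seed marker CRA1 did not exceed 0.63 CPM, and the pollen marker VGD1 had no read.

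The change that marks the K48M line lies in KIN10, and the stretch around that codon is printed with its counterpart in KIN11 because reads of the transgene and of the resident gene are counted together. Both are given 5′ to 3′ on the coding strand of the reference genome (RefSeq, TAIR10.1), and the capitals mark the codon of the lysine that binds ATP, which is codon 48 of KIN10 (chr3:33804-33866, minus strand) and codon 49 of KIN11 (chr3:11131334-11131396, minus strand). Without this lysine the enzyme is known to lose its activity.
KIN10: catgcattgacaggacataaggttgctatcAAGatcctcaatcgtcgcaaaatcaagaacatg
KIN11: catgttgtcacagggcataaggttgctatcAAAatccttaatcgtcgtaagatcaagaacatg
The windows differ at 9 of 63 bases. Over 1526 aligned coding bases the genes were 77.3% identical, and their longest identical run was 29 bases.

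AKINBETA1 and KING1, whose mRNAs rose together under water, are shown by the 250 bases before the annotated start of the gene. Motifs were searched on both strands: the G-box CACGTG, its ACGT core, the anaerobic response motif AAACCA, the sugar-repressive motif TTATCC and the I-box GATAA, which overlaps TTATCC where a GATAA reads out of GGATAA. In the AKINBETA1 window (chr5:7205227-7205476, plus strand) the capitals mark TTATCC and its reverse complement GGATAA. In the KING1 window (chr3:17987128-17987377, plus strand) they mark CACGTG and GATAA.
AKINBETA1: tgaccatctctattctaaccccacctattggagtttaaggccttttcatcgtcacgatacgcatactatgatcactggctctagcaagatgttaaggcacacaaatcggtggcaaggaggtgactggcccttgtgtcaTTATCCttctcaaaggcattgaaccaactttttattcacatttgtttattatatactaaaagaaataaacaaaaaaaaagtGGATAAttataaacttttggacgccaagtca
KING1: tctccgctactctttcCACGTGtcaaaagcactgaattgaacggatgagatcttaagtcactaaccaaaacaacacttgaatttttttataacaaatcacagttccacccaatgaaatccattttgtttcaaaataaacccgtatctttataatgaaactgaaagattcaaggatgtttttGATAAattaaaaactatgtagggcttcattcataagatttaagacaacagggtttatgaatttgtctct
AKINBETA1 held TTATCC or its reverse complement at 2 places, starting at -112 and -31 from the gene start, and 12.5% of 27438 windows of the same length held that motif. KING1 held 1 G-box at -234, and 6.5% of the windows held one. No motif is shared by the 2 genes except GATAA, which 54.9% of the windows held. The anaerobic response motif, found in 27.3% of the windows, was at -61 in AKINBETA3 and at -16 in SNF4 and in none of the other 7 genes. AKINBETA2 and GRIK2 held none of the 5 motifs.

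Levels of different genes were compared as RPKM, which are reads scaled to library size and divided by the length of the transcript model. In the 8 Col-0 libraries KING1 had the highest median, 167.5 RPKM with a range of 124 to 281 RPKM. AKINBETA1 followed at a median of 97.2 RPKM, from 42.9 to 174 RPKM, so that their ranges overlap. Both stood above every other member, none of which exceeded 31.3 RPKM in a Col-0 library.

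A middle level in Col-0 was shared by 4 genes, with medians of 14.4 RPKM for KIN10, 14.1 RPKM for KIN11, 13.8 RPKM for AKINBETA3 and 13.7 RPKM for AKINBETA2, and their ranges overlap. As counted, the lowest were GRIK1 at 7.68 RPKM, SNF4 at 6.67 RPKM and GRIK2 at 6.67 RPKM, again with overlapping ranges. The GRIK1 and GRIK2 values leave out reads given to upstream reading frames listed as genes of their own on the same mRNAs. On the GRIK2 mRNA that entry took 39.5% to 57.5% of the summed reads, so the low rank of GRIK2 depends on this assignment. Messages of the γ-type KING1 thus outnumbered those of the βγ subunit SNF4 in each library, by a ratio of 11.2 to 46.5 per length. Among the β subunits, AKINBETA1 made up 53.8% to 85.7% of the summed RPKM in the 16 libraries.

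**Figure D1:**
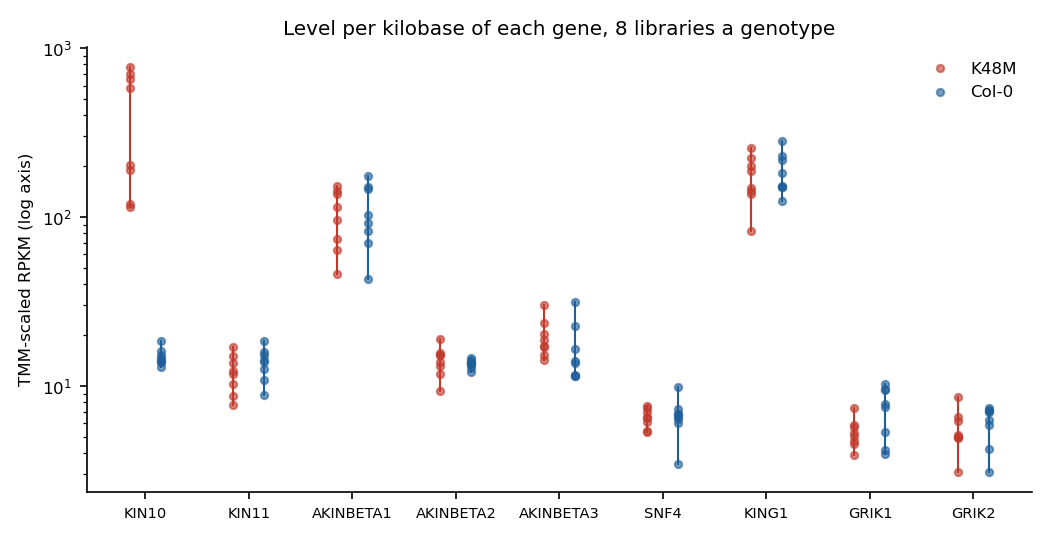
Level of each of the 9 genes in RPKM on a log axis, with 1 point a library and a line from the lowest to the highest, for 8 K48M libraries (red) and 8 Col-0 libraries (blue). KIN10 lies between 114 and 770 RPKM in K48M and between 12.9 and 18.4 RPKM in Col-0, while the other 8 genes overlap between the genotypes.

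KIN10, the main catalytic subunit, checks the labels of the overexpressing line. In total mRNA it had 1400 CPM under water and 1170 CPM in the dark in the ST_FR K48M libraries, against 25.9 and 32.3 CPM under water and 27.8 and 36.8 CPM in the dark in Col-0. The K48M libraries in conflict had 1550 CPM by header under water and 1330 CPM by header in the dark. On polysomes it had 385 and 411 CPM under water and 232 and 243 CPM in the dark in K48M, against 29.4 and 27.9 CPM under water and 29.3 and 30.4 CPM in the dark in Col-0.

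Every K48M library lay above every Col-0 library in both fractions, and the lowest K48M value belonged to polysome RNA in the dark. KIN10 was 50.5-fold higher in K48M than in Col-0 in submerged total mRNA (log2 5.66 ± 0.26 SE, edgeR adjusted p = 1.35e-07) and 38.0-fold higher in dark total mRNA (log2 5.25 ± 0.26, edgeR adjusted p = 3.05e-07). On polysomes the ratio was smaller, 13.9-fold under water (log2 3.79 ± 0.22, edgeR adjusted p = 3.4e-06) and 8.02-fold in the dark (log2 3.00 ± 0.22, edgeR adjusted p = 5.75e-05).

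KIN10 was the 1 member called in each of these 4 comparisons, and also the 1 gene of 19436 called there, which is 0.00515% of the genes tested. At an unadjusted p below 0.05 edgeR counted 1459 genes in submerged total, 1798 in dark total, 444 in submerged polysome and 334 in dark polysome RNA. The 4 KIN10 calls were kept under each of the 8 other settings that gave a value. They were also kept in the 12 fits without a single library that gave all 4 values. Without the lone ST_FR library of a K48M total group, the call in that group could not be tested. Reads of a single transcript model made up 0.103% of its reads, too few for a test on unique reads. In whole seedlings, fewer cells of a type that makes an mRNA and less of the mRNA in each cell cannot be told apart.

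KIN11, the second catalytic subunit, did not pass the test in any of the 18 contrasts. It had 14.3 to 31.9 CPM in the 8 K48M libraries, with a median of 22.9 CPM, and 16.8 to 34.7 CPM in the 8 Col-0 libraries, with a median of 26.9 CPM. The difference of K48M from Col-0 was -0.46 ± 0.30 in submerged total, 0.09 ± 0.29 in dark total, -0.06 ± 0.24 in submerged polysome and -0.25 ± 0.25 in dark polysome RNA (log2 ± SE). The ratio of KIN10 to KIN11 per length was 45.3 to 80.2 in K48M total mRNA and 8.69 to 18.4 in K48M polysome RNA, against 0.751 to 1.62 over both fractions of Col-0.

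**Figure D2:**
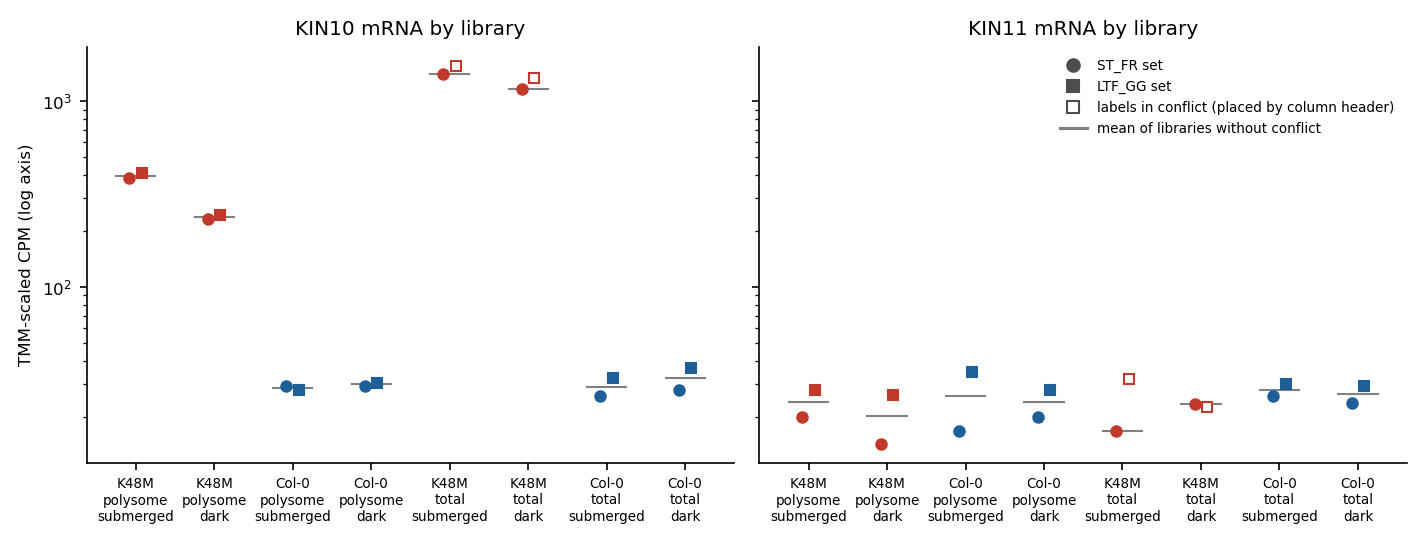
KIN10 (left) and KIN11 (right) in TMM-scaled CPM on a log axis, with 1 point a library in 8 groups; circles are ST_FR, squares LTF_GG, open squares the libraries in conflict placed by column header, and grey lines the mean of the libraries without conflict. KIN10 is highest in K48M total mRNA, at 1170 to 1550 CPM, and lower on K48M polysomes, at 232 to 411 CPM, while KIN11 stays between 14.3 and 34.7 CPM.

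In K48M against Col-0, none of AKINBETA1, AKINBETA2, AKINBETA3, SNF4, KING1, GRIK1 and GRIK2 was called. In the fit of 14 libraries the largest difference was that of KING1 in dark total mRNA, -0.79 ± 0.27 on the log2 scale (edgeR unadjusted p = 0.0118, adjusted p = 0.464). It rests on a single K48M library of 135 CPM, while the library in conflict had 241 CPM by header and the Col-0 libraries had 202 and 245 CPM. With all 16 libraries by header the difference was -0.26 ± 0.30. In that fit the largest difference was that of GRIK1 in submerged total mRNA, -0.98 ± 0.32 with a 95% interval from -1.67 to -0.29 (edgeR unadjusted p = 0.00851, adjusted p = 0.642), against -0.60 ± 0.31 with 14 libraries. GRIK1 had 9.61 CPM and, in the library in conflict, 9.05 CPM by header in submerged K48M total mRNA. Submerged Col-0 total mRNA had 16.3 and 22.1 CPM, so that these groups do not overlap. On that mRNA the upstream reading frame CPuORF61, listed as a gene of its own, took 24.4% and 29.6% of the summed reads in those K48M libraries. The share was 7.32% and 10.7% in those of Col-0, so the size of the difference depends on this assignment.

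Under submergence, messages of the β subunit AKINBETA1 and the γ-type KING1 were higher than in the dark, while KIN11, AKINBETA2, AKINBETA3, SNF4, GRIK1 and GRIK2 had 95% intervals that include 0 in each comparison of the 14-library fit. Among 36 tests, 9 genes in 4 comparisons, 7 were called and all 7 were higher under water. K48M polysome RNA had 3 of 9 called higher, where 7.58% of all genes tested were called higher. Col-0 polysome RNA had 2 of 9 (6.33% of all genes), K48M total mRNA 1 of 9 (3.34%) and Col-0 total mRNA 1 of 9 (7.44%). Member medians of the log2 response were 0.29 in K48M polysome, 0.06 in Col-0 polysome, -0.26 in K48M total and 0.12 in Col-0 total RNA, and medians over all genes lay between -0.02 and 0.01.

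AKINBETA1 tethers the catalytic subunit and helps to set where the complex acts. On polysomes it had 193 and 179 CPM under water against 80.6 and 93.4 CPM in the dark in K48M, and 220 and 187 CPM under water against 88.9 and 129 CPM in the dark in Col-0. In total mRNA the ST_FR K48M libraries had 145 CPM under water against 57.9 CPM in the dark, the libraries in conflict 172 against 121 CPM by header, and Col-0 117 and 189 CPM under water against 54.3 and 105 CPM in the dark.

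With the libraries in conflict placed by header, the submerged libraries lay above the dark ones without overlap in each comparison. Placed by title, they overlapped in K48M total mRNA. The LTF_GG values were higher than those of ST_FR in Col-0 total mRNA in both conditions. The response was 1.10 ± 0.27 in K48M polysome RNA (edgeR adjusted p = 0.0161), 0.93 ± 0.27 in Col-0 polysome RNA (edgeR adjusted p = 0.0432) and 0.96 ± 0.27 in Col-0 total mRNA (edgeR adjusted p = 0.0333). In K48M total mRNA it was 1.33 ± 0.39, which did not pass (edgeR adjusted p = 0.0649). Reads unique to 1 transcript model were 9.53% of its reads, and on these the response was called in K48M polysome RNA alone.

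KING1, which carries the CBS repeats of γ subunits, had 415 and 361 CPM under water against 232 and 221 CPM in the dark on K48M polysomes. On Col-0 polysomes it had 457 and 373 CPM under water against 245 and 247 CPM in the dark. In total mRNA the ST_FR K48M libraries had 303 CPM under water against 135 CPM in the dark, the libraries in conflict 326 against 241 CPM by header, and Col-0 354 and 298 CPM under water against 202 and 245 CPM in the dark.

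By header, all submerged libraries of KING1 again lay above all dark ones of the same genotype and fraction, while by title they overlapped in K48M total mRNA. The lowest KING1 value of all was in the ST_FR K48M total dark library. Its response was 0.76 ± 0.21 in K48M polysome RNA (edgeR adjusted p = 0.0276), 0.74 ± 0.21 in Col-0 polysome RNA (edgeR adjusted p = 0.0351) and 1.17 ± 0.30 in K48M total mRNA (edgeR adjusted p = 0.0354). In Col-0 total mRNA it was 0.54 ± 0.21 and did not pass (edgeR adjusted p = 0.114). Every read given to KING1 was unique to its single model.

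KIN10 was called under water on K48M polysomes alone, where it was 0.73 ± 0.20 higher on the log2 scale (edgeR adjusted p = 0.0268). Its response was -0.06 ± 0.22 on Col-0 polysomes, 0.27 ± 0.28 in K48M total and -0.15 ± 0.21 in Col-0 total mRNA. In K48M these reads come from the transgene and the resident gene together, in Col-0 from the resident gene alone. The difference between the K48M and the Col-0 polysome response was 0.79 ± 0.29 (edgeR unadjusted p = 0.0182, adjusted p = 1), so that the responses were not shown to differ.

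These 7 calls depend on the fit. Each was kept when ribosomal RNA and organelle genes were left out. All 7 were lost in the fit without library set as a block, with adjusted p from 0.189 to 0.411 (edgeR). With all 16 libraries by column header, 1 of the 7 was kept, AKINBETA1 in K48M polysome RNA (1.12 ± 0.32, edgeR adjusted p = 0.0397), where 5.45% of all genes tested in that fit were called higher, while the log2 values of the other 6 lay between 0.74 and 0.95.

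Single libraries also decide them. Without either K48M polysome dark library none of the 7 calls was kept, with edgeR adjusted p of 0.0553 to 0.201. KIN10 and KING1 in K48M polysome RNA were lost without either submerged library of that group as well (edgeR adjusted p 0.0853 to 0.182), and AKINBETA1 there without the ST_FR one (0.197). In Col-0 polysome RNA, KING1 was lost without any of the 4 libraries of that comparison (edgeR adjusted p 0.112 to 0.254), and AKINBETA1 without either dark library or the ST_FR submerged one (0.125 to 0.4). AKINBETA1 in Col-0 total mRNA was lost without the ST_FR dark library (edgeR adjusted p = 0.324) or the LTF_GG submerged one (0.151). KING1 in K48M total mRNA was lost without any of the Col-0 or K48M polysome submerged libraries (edgeR adjusted p 0.0526 to 0.0639).

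**Figure D3:**
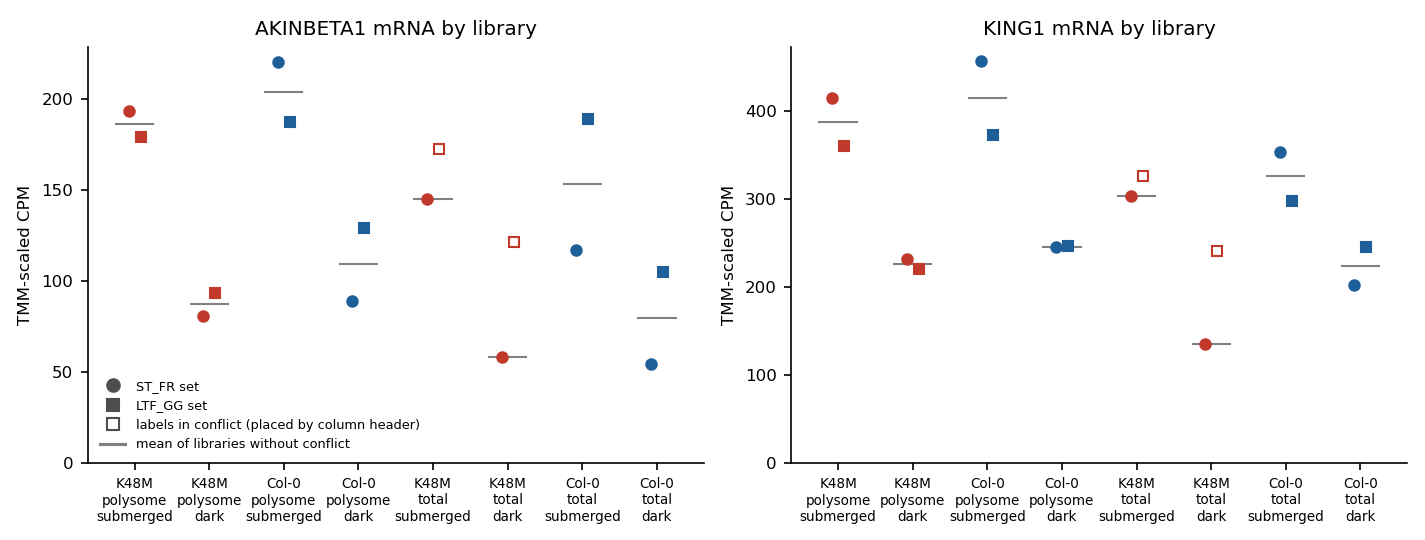
AKINBETA1 (left) and KING1 (right) in TMM-scaled CPM from 0, with 1 point a library in 8 groups; symbols as in the plot of KIN10 and KIN11. In each pair of neighbouring groups, with libraries in conflict placed by column header, the submerged libraries, on the left, lie above the dark ones. KING1 is at 361 to 457 CPM on submerged polysomes against 221 to 247 CPM on dark ones.

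The β subunit AKINBETA2 had 19.9 to 23.7 CPM in Col-0. In K48M it ran from 15.2 CPM, in the library in conflict that holds 14.6% ribosomal RNA reads, to 31.4 CPM. Its response lay between -0.48 ± 0.28, in K48M total mRNA, and 0.09 ± 0.21 on the log2 scale. With 16 libraries by header the K48M total response was -0.59 ± 0.23, with a 95% interval from -1.09 to -0.10 (edgeR unadjusted p = 0.0221, adjusted p = 0.139). By header the K48M total libraries had 22.5 and 15.2 CPM under water against 31.4 and 25.5 CPM in the dark, without overlap.

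AKINBETA3, a short plant β subunit of 114 codons that lacks the N-terminal part and the glycogen-binding domain, split by library set on polysomes. In the ST_FR set it had 18.9 CPM under water and 24 CPM in the dark in K48M, and 18.2 CPM under water and 25.1 CPM in the dark in Col-0. In the LTF_GG set it had 12.3 CPM under water and 11.4 CPM in the dark in K48M, and 9.12 CPM under water and 11.3 CPM in the dark in Col-0. The 4 ST_FR polysome libraries thus lay above the 4 LTF_GG ones whatever the genotype or condition, and none of its responses was called. In the column headers those ST_FR libraries carry a different sequencing lane tag from all other libraries. Library set and lane therefore cannot be told apart on polysomes.

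SNF4, the βγ subunit that completes the plant trimer, had 12.3 to 17.6 CPM in K48M and 7.91 to 22.7 CPM in Col-0. Its lowest value, from 17 reads, was in the library with the most ribosomal RNA. The responses were 0.20 ± 0.24 in K48M polysome, 0.26 ± 0.25 in Col-0 polysome, -0.45 ± 0.33 in K48M total and 0.28 ± 0.23 in Col-0 total RNA.

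As counted, with reads of the GRIK2 mRNA split between separately listed entries, the upstream kinases had the lowest levels per length beside SNF4. Their counts are uncertain, since the upstream reading frames CPuORF61 and CPuORF62 are listed as genes of their own on the same mRNAs and took 7.32% to 36.1% of the reads summed with GRIK1 and 39.5% to 57.5% of those summed with GRIK2. GRIK1 ran from 7.82 to 15.5 CPM in K48M and from 7.91 to 22.1 CPM in Col-0, where the LTF_GG libraries, at 15.1 to 22.1 CPM, were higher than 3 of the 4 ST_FR ones and the ST_FR submerged total library had 16.3 CPM. GRIK2 ran from 6 to 16.8 CPM in K48M and from 6.05 to 14.5 CPM in Col-0, with the lowest values in the ST_FR polysome dark libraries of both genotypes. None of their 8 responses was called. The widest intervals belonged to GRIK2, from -1.69 to 0.14 in K48M total mRNA (95%), where each group holds 1 library in the fit. A fall of the size of the AKINBETA1 rise could not be told from no change there. With 16 libraries by header that GRIK2 interval ran from -1.25 to 0.37.

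**Figure D4:**
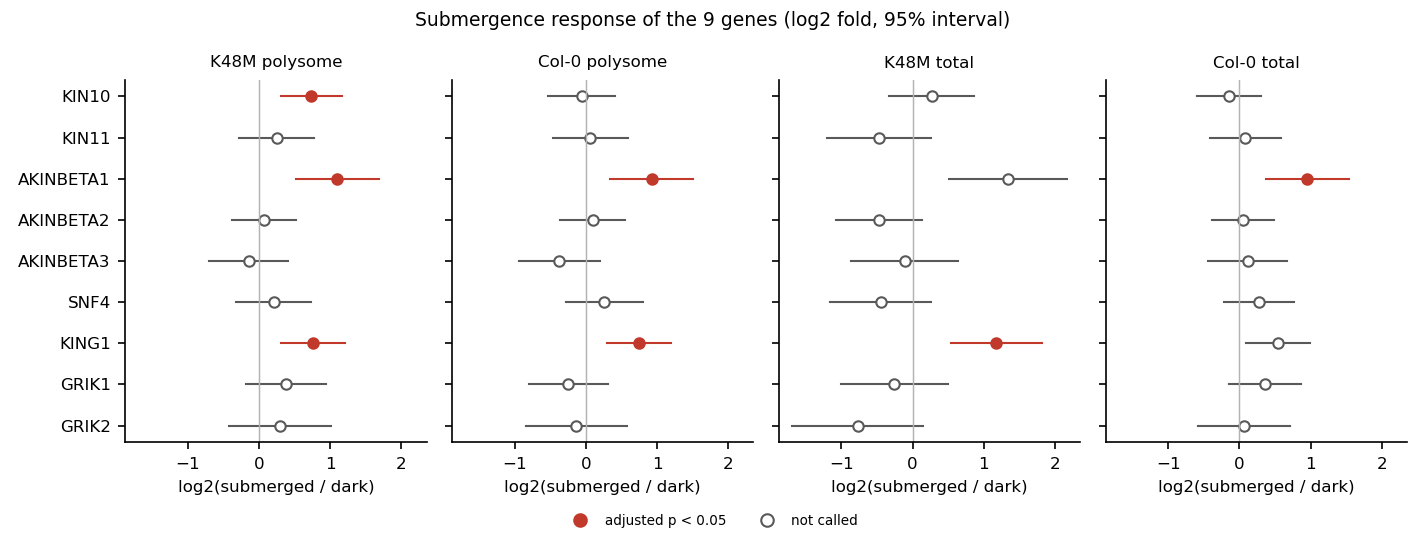
Submergence response of the 9 genes as log2 of submerged over dark, with the 95% interval, in K48M polysome, Col-0 polysome, K48M total and Col-0 total RNA from the fit of 14 libraries. Filled red points passed an adjusted p of 0.05: AKINBETA1, KING1 and KIN10 in K48M polysome, AKINBETA1 and KING1 in Col-0 polysome, KING1 in K48M total and AKINBETA1 in Col-0 total RNA.

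Comparing polysome with total RNA gives the share of a message that sits on heavy polysomes relative to most other mRNAs, since the scaling removes a shift they all have in common. In the ST_FR set the polysome and total libraries carry different lane tags, so fraction and lane cannot be told apart within that set. KIN10 was lower on polysomes than in total mRNA in K48M and was at about the same level in both in Col-0. The K48M values count the transgene and the resident gene together. The values were 385 and 411 CPM on submerged K48M polysomes against 1400 CPM in submerged K48M total mRNA, and 232 and 243 CPM on dark K48M polysomes against 1170 CPM in dark K48M total mRNA. Those groups do not overlap, and the total libraries in conflict lay higher still, at 1550 and 1330 CPM.

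The log2 ratio of polysome to total was -1.90 ± 0.24 in submerged K48M (edgeR adjusted p = 0.0159) and -2.36 ± 0.24 in dark K48M (edgeR adjusted p = 0.00151). KIN10 was the 1 of 9 members called lower in each, where 1.57% of all genes tested were called lower in submerged and 2.45% in dark K48M. In Col-0 the ratio was -0.03 ± 0.21 under water and -0.12 ± 0.21 in the dark, and 0 of 9 members were called (edgeR, unadjusted p below 0.05 for 1 member in each, DESeq2 0), where 2.39% of all genes were called in either direction under water and 2.38% in the dark. Both calls were kept with all 16 libraries by header, at -1.89 ± 0.27 under water (edgeR adjusted p = 0.0097) and -2.40 ± 0.28 in the dark (edgeR adjusted p = 0.00163), where 2.34% and 2.71% of all genes tested in that fit were called lower.

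Neither call was kept without the block (edgeR adjusted p = 0.222 under water and 0.16 in the dark), although the ratios, -1.83 and -2.30, were close. They were lost also without either polysome library of the same condition, with edgeR adjusted p of 0.108 and 0.0654 under water and of 0.135 and 0.0738 in the dark.

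The difference between the genotypes was tested itself. It sets transgene and resident mRNA counted together in K48M against resident mRNA alone in Col-0. A change in the loading of the resident mRNA was therefore not tested. The KIN10 ratio was lower in K48M than in Col-0 by -1.87 ± 0.32 under water (edgeR unadjusted p = 5.52e-05, adjusted p = 0.999) and by -2.24 ± 0.32 in the dark (edgeR unadjusted p = 8.34e-06, adjusted p = 0.162). DESeq2 called both, with adjusted p of 0.00324 and 8.44e-06. Without either Col-0 total submerged library the dark difference passed in edgeR too (-2.23 and -2.24, adjusted p = 0.0326 each).

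Of the 54 differences between responses or ratios, 9 genes in 6 contrasts, 0 passed in edgeR, as did 0 of all genes tested (0% called in each contrast). At an unadjusted p below 0.05, 3 of the 54 stood out, and all 3 were KIN10. Over all genes that count ran from 255 to 1046 a contrast.

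None of the other members was called. KING1 was 0.80 ± 0.27 higher on polysomes in dark K48M (edgeR adjusted p = 0.0904), and 0.28 ± 0.30 with 16 libraries. GRIK1 was -0.75 ± 0.24 in submerged Col-0 (edgeR adjusted p = 0.104), and GRIK2 was -1.10 ± 0.39 in dark K48M (edgeR adjusted p = 0.105), and -0.58 ± 0.39 with 16 libraries. The GRIK1 ratio in submerged K48M less that in submerged Col-0 was 0.77 ± 0.40 (edgeR unadjusted p = 0.0757), and 1.14 ± 0.46 with 16 libraries (edgeR unadjusted p = 0.0251, adjusted p = 0.999). CPuORF61 took 19% and 29.5% of the reads summed with GRIK1 on submerged Col-0 polysomes, against 7.32% and 10.7% in submerged Col-0 total mRNA. The size of these GRIK1 ratios thus depends on how reads were assigned between the entries. AKINBETA1 had positive ratios in each of the 4 comparisons, from 0.19 to 0.47, none of which was called. On the reads unique to 1 model all 4 ratios were negative, from -1.85 in submerged K48M (edgeR adjusted p = 0.0304) to -0.595 in dark Col-0 (0.417). AKINBETA3 also had positive ratios in all 4, from 0.22 to 0.71. In the ST_FR set, whose polysome libraries carry their own lane tag, it was higher on polysomes in each comparison. The LTF_GG Col-0 libraries had 9.12 CPM in both fractions under water. In the dark they had 11.3 CPM on polysomes against 9.32 CPM in total mRNA. By header, LTF_GG K48M had 12.3 CPM on polysomes against 13.8 CPM in total mRNA under water, and 11.4 against 13.6 CPM in the dark. The SNF4 ratios ran from -0.51 to 0.14.

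**Figure D5:**
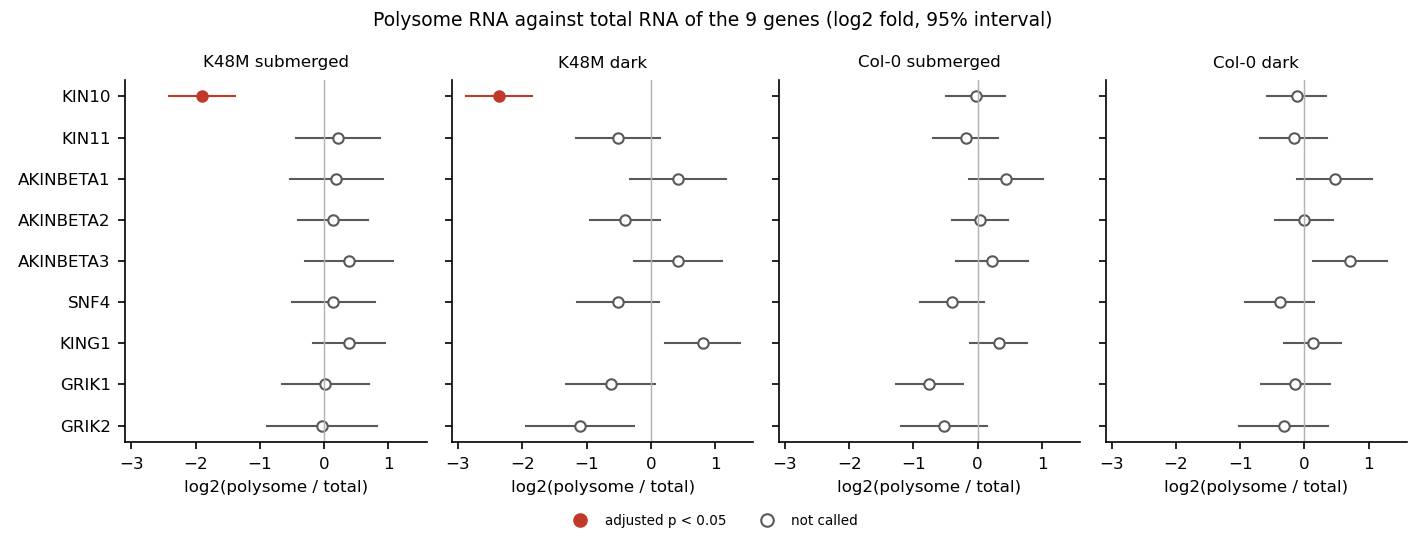
Polysome over total RNA of the 9 genes on the log2 scale with the 95% interval, in submerged K48M, dark K48M, submerged Col-0 and dark Col-0, from the fit of 14 libraries. Filled red points passed an adjusted p of 0.05: KIN10 at -1.90 in submerged and -2.36 in dark K48M, while the Col-0 values of KIN10 lie at -0.03 and -0.12.

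The members' patterns over the 14 tested libraries, with the mean of each library set removed, are given as Pearson's r of log2 CPM, a description in which libraries share their set and depth. AKINBETA1 and KING1 were the most alike of the 36 pairs, at r = 0.92. GRIK2 followed SNF4 at 0.74 and GRIK1 at 0.71, and AKINBETA3 ran opposite to GRIK2 at -0.75. Removing the set mean leaves in the separate lane tag of the ST_FR polysome libraries. In that set AKINBETA3 was higher and GRIK2 lower on polysomes than in total mRNA, where fraction and lane cannot be told apart. KIN10 was not close to any member, with r from -0.34 to 0.40. Both genotypes are pooled in these values, and the overexpressing line sets KIN10 apart. Its r therefore cannot show whether the resident gene runs with the other members.

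Among all genes outside the 9, AT5G61590 (r = 0.97) and AT3G07310 (0.97) were most like AKINBETA1, and AT2G04795 (0.97) and BAG6 (0.96) most like KING1. For the catalytic genes they were TRFL7 (0.83) and AT1G47271 (0.83) for KIN10, and AT3G51130 (0.88) and NAD-ME2 (0.86) for KIN11. The KIN10 values again pool the overexpressing line with Col-0. For the other β genes they were AT1G75150 (0.77) and EMB976 (0.75) for AKINBETA2, and AT3G29639 (0.95) and AT2G05310 (0.95) for AKINBETA3. SNF4 was most like AT5G25050 (0.89) and LAC8 (0.88), GRIK1 most like OFP2 (0.89) and AT4G23510 (0.89), and GRIK2 most like AT1G13910 (0.94) and HAP13 (0.93).

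The genes around the complex were read from lists of known partners, regulators and targets. KIN12, the third gene of the catalytic family, had 0 reads in the 16 libraries. No gene of the lists was called in K48M against Col-0 or in a difference of responses or ratios.

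FCS-like zinc finger (FLZ) proteins bind the kinase and other proteins, and all 13 on the list were tested. Under water 3 were called higher and 1 lower in K48M polysome RNA, 3 and 1 in Col-0 polysome RNA, 3 and 0 in K48M total and 4 and 1 in Col-0 total mRNA. The shares of all genes called higher were 7.58% in K48M polysome, 6.33% in Col-0 polysome, 3.34% in K48M total and 7.44% in Col-0 total RNA. The shares of all genes called lower were 6.04% in K48M polysome, 4.37% in Col-0 polysome, 1.84% in K48M total and 4.59% in Col-0 total RNA. FLZ2 rose by 2.58 on K48M polysomes (edgeR adjusted p = 9.39e-05), 2.37 on Col-0 polysomes (0.000239), 3.18 in K48M total (0.000498) and 2.48 in Col-0 total RNA (4.16e-05), on the log2 scale. FLZ1 and FLZ13 rose in the same 4 comparisons, by 1.22 to 2.04 and by 2.00 to 2.21. FLZ14 fell by 1.03 on K48M polysomes (edgeR adjusted p = 0.0126), by 1.08 on Col-0 polysomes (0.0111) and by 1.51 in Col-0 total mRNA (0.000779).

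FLZ14 was also lower on polysomes than in total RNA in all 4 comparisons, by -1.79 in submerged K48M (edgeR adjusted p = 0.0167), -1.85 in dark K48M (0.0115), -1.51 in submerged Col-0 (0.0123) and -1.93 in dark Col-0 (0.00788). In Col-0, 1.28% of all genes were called lower on polysomes under water and 0.839% in the dark. In K48M, FLZ1 was called lower there as well, by -1.48 under water and -2.04 in the dark, and FLZ10 by -3.09 in the dark. Of all genes, 1.57% were called lower on K48M polysomes under water and 2.45% in the dark. The median ratio of the 13 FLZ genes ran from -0.72 to -0.49, against medians over all genes of -0.0277 to 0.000758.

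Trehalose 6-phosphate is a sugar signal that inhibits SnRK1, and not every member of the TPS family is known to make it. Of 8 TPS genes, 4 were called higher under water in K48M polysome, 3 in Col-0 polysome, 1 in K48M total and 3 in Col-0 total RNA, and 0 lower in any of them (edgeR). The shares of all genes called higher were 7.58%, 6.33%, 3.34% and 7.44% in that order. TPS8, of the class with no known synthase activity, was in each count, with log2 responses of 1.33, 1.16, 1.41 and 1.10. TPS9 and TPS10, like TPS7 of the same class, were called in 3 of the 4, by 0.73 to 1.01 and 0.74 to 1.10. TPS7 had a further call. It was lower on polysomes than in total RNA in dark K48M, by -1.51.

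The group C and S1 bZIP factors act downstream of the kinase in starvation responses, and bZIP63 is its phosphorylation target. Of 9 tested, 4 were called higher in K48M polysome, 4 in Col-0 polysome, 3 in K48M total and 3 in Col-0 total RNA, with 0 lower in edgeR. The shares of all genes called higher were 7.58%, 6.33%, 3.34% and 7.44% in that order. bZIP63 rose by 1.05, 1.14, 1.34 and 0.96 in that order, and bZIP25 by 0.67, 0.86, 1.06 and 0.92. bZIP53 was called lower on polysomes than in total RNA in submerged Col-0, by -1.03, where 1.28% of all genes were called lower. A further list held 5 transcripts used as reporters of SnRK1 activity. Of these, 3 were called higher under water in K48M polysome, 2 in Col-0 polysome, 2 in K48M total and 1 in Col-0 total RNA. DIN10, of the raffinose synthase family, was called higher in all 4, by 1.68, 1.69, 1.85 and 1.52, and SEN5 in 3 of them, by 1 to 1.49. ASN1/DIN6 and AXP were called in none of the 4. DIN1/SEN1 was called higher under water in K48M polysome RNA alone, by 1.20, and higher on polysomes than in total RNA in dark K48M, by 1.79, where 2.8% of all genes were called higher.

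Of 4 regulators of the complex, SIZ1, a SUMO ligase, was called higher in K48M polysome (1.25), Col-0 polysome (0.90) and Col-0 total RNA (1.23), and PP2CA, a phosphatase that inactivates the kinase, lower in K48M polysome RNA (-1.08). Of 10 genes whose proteins SnRK1 phosphorylates, the nitrate reductases NIA2 and NIA1 were called higher on Col-0 polysomes (0.91 and 0.96), NIA2 also on K48M polysomes (0.75), and none in total mRNA (edgeR; at an unadjusted p below 0.05, 1 in K48M and 2 in Col-0). For the regulators and these targets, the shares of all genes called higher or lower were those given with the FLZ genes. All the list values named here number among 65 calls, of which 7 were kept without the block, 48 with 16 libraries by header, 3 with 16 libraries by title and 42 to 65 without single libraries, with 42 without either K48M polysome dark library.

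For i4g1-2 and 4A-15 the values used are the authors' log2 folds of submerged over dark and their unadjusted p-values, per transcript model. The Col-0 columns of that table draw on libraries of both experiments, per its index. In total mRNA the authors' deposited table gives AKINBETA1 model 1 as 0.73 in i4g1-2 (p = 0.137), 0.73 in 4A-15 (p = 0.140), 1.12 in K48M (p = 0.0285) and 0.72 in Col-0 (p = 0.0710). For KING1 the authors' deposited table gives 0.38 in i4g1-2 (p = 0.163), 0.44 in 4A-15 (p = 0.106), 0.79 in K48M (p = 0.00395) and 0.55 in Col-0 (p = 0.0136). All 8 folds are above 0, and none of the 4 in i4g1-2 and 4A-15 has a p below 0.05.

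Another model of AKINBETA1 and 1 model of KIN11 are also listed. In total mRNA the authors' deposited table gives AKINBETA1 model 2 as 1.60 in i4g1-2 (p = 0.0347), 0.87 in 4A-15, 0.94 in K48M and 0.99 in Col-0, where the last 3 have p of 0.119 to 0.411. For KIN11 model 3 the authors' deposited table gives -1.78 in i4g1-2 (p = 0.0981), 0.20 in 4A-15, 0.49 in K48M and 0.95 in Col-0, where the last 3 have p of 0.252 to 1.

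For polysome RNA the columns of the authors' deposited table are centred differently, with medians over 8391 models of -0.94 in i4g1-2, -1.01 in 4A-15, -1.51 in K48M and -0.29 in Col-0. Relative to its column's median, KING1 in the authors' deposited table was 0.69 in i4g1-2, 0.57 in 4A-15, 1.13 in K48M and 0.90 in Col-0. On the same scale the authors' deposited table has AKINBETA1 model 1 at 0.95 in i4g1-2, 1.44 in 4A-15, 1.63 in K48M and 0.94 in Col-0. AKINBETA1 model 2 in the authors' deposited table was 0.53 in i4g1-2, 3.10 in 4A-15, -0.75 in K48M and 1.33 in Col-0, so that the models lie on opposite sides of the median in K48M. On K48M polysomes model 2 had 20 reads under water and 94 in the dark in ST_FR, but 96 and 8 in LTF_GG. The sets thus go in opposite directions, and a response particular to model 2 was not shown. KIN11 model 3 in the authors' deposited table was -0.03 in i4g1-2, 0.25 in 4A-15, -0.42 in K48M and -0.91 in Col-0. The other 6 members are not among the models used from that table.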

How the data were processed

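Libraries of heavy-polysome RNA and of total mRNA from whole seedlings were run on an Illumina HiSeq instrument, as the labels' protocols state. For the 16 Col-0 and K48M libraries analysed here, of 40 samples in the series, the authors deposited raw counts of reads for each transcript model, both all gene reads and those unique to a model, per the file headers. The submitters' processing notes name the TAIR10 build. No aligner or strandedness is named in the sources used here, so sense and antisense reads cannot be told apart. The authors also deposited log2 folds of submerged over dark for 8391 models, which are quoted as theirs, with their unadjusted p-values, for i4g1-2, 4A-15, K48M and Col-0. The signed fold score and the p-values of their own test, which the authors deposited beside the counts, support no call here.

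Total gene reads were summed per locus. The tables hold 11 rows without an identifier, at most 0.00839% of a library's reads, which were left out. Groups follow the labels. Tests were edgeR 4.0.16 (R 4.3.3) quasi-likelihood fits with TMM scaling, the filterByExpr filter (minimum count 10, minimum total 15), a term per group and library set as a block, over 14 libraries with 5 residual degrees of freedom and a biological coefficient of variation of 18.8%. The Benjamini-Hochberg adjustment ran over 19436 genes in each of 18 contrasts, and a call is an adjusted p below 0.05. The 2 LTF_GG K48M total libraries, whose labels conflict, were left out of the tests. CPM and RPKM are TMM-scaled over all 16 libraries, and RPKM sums reads per kilobase over models. Scripts were tested on simulated data.

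Libraries of the same set deviated together: over 14587 genes the correlation of deviations from the group means was 0.330 to 0.732 for the 15 pairs of groups, so the sets pair the libraries, as the set names in the labels do. Alternatives were unique reads, DESeq2 1.42.0, upper-quartile scaling, no filter, no block, 16 libraries by header or by title, no ribosomal RNA or organelle genes, and each library left out. Adding the upstream reading frames to GRIK1 and GRIK2 was chosen after seeing the data. Members, lists and tests were chosen with earlier results of these data known. Text names all 9 members, for each list at most 4 called genes of lowest adjusted p a contrast, and for each member the 2 genes of highest r. Sequences are RefSeq's, assembly TAIR10.1. Gene reads per library ran from 3749306 to 6768995, which limits the precision of the members with few reads: SNF4, GRIK1 and GRIK2 had 13 to 189 reads a library. The second experiment's counts were not used here, and the tests planned for it were not run.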

Additional observations from a re-analysis of the deposited data

Results flagged for a closer look

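Reads outside the 9 genes were given to 2 upstream reading frames that share an mRNA with an upstream kinase and are listed as genes of their own. CPuORF61, on the GRIK1 mRNA, had 315 reads over the 16 libraries, and CPuORF62, on the GRIK2 mRNA, had 1097 reads, more than the 1042 reads given to GRIK2 itself. With these reads added to GRIK1 and GRIK2, an alternative chosen after seeing the data, the counts of called members were the same in each of the 4 families of comparisons. No GRIK1 or GRIK2 value was called in either case, so the same counts do not show how far their values moved. All reads of both entries were shared with another model, so none was unique.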

How the results depend on the processing

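The count of called responses to submergence was 7 of 36. It was 4 of 16 testable on unique reads, 4 under upper-quartile scaling, 1 with 16 libraries by column header and 0 by title, and 0 to 8 without single libraries. The 4 KIN10 calls of K48M against Col-0 were kept in all other settings (4 to 4 without single libraries) except on unique reads, which gave no KIN10 value and 0 calls of 16. Calls of polysome against total RNA, 2 of 36, numbered 1 of 16 on unique reads and 1 to 5 without single libraries. Differences of responses or ratios, 0 of 54 in edgeR, numbered 2 with DESeq2, both KIN10, and 0 to 1 without single libraries. Without the replicate block, which here is the library set, 0 of the 7 responses and 0 of the 2 polysome calls were kept, while all 4 K48M calls and 7 of the 65 named list calls were. With 16 libraries by title, 3 of those 65 were kept. On unique reads the AKINBETA1 ratio of polysome to total in submerged K48M reversed to -1.85. The cause of these changes was not tested. Over the 162 member values, 3450 values under other settings stayed on their side of the threshold, 63 lost the call, 14 gained one and 1 was called in the opposite direction; signs of uncalled values are not counted. Leaving out the lone ST_FR library of a K48M total group leaves no value for its contrasts.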
